A study of Homo sapiens with 20 samples.

Results

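Proteins that hold an iron-sulfur cluster as a cofactor are the clients of the cell's cluster assembly machinery. A list of 38 human genes for such proteins was taken by symbol, and all 38 were found among the 26038 symbols of the count table. The rule itself uses no measured value, but the list was chosen with earlier results of these data known. They comprised 8 electron carriers of the respiratory chain, 6 genes for cytosolic aconitase, lipoate and haem synthesis and the CISD proteins, 12 DNA replication and repair enzymes, 4 enzymes of nucleotide and molybdenum cofactor metabolism, and 8 genes for tRNA and diphthamide modification, ribosome recycling and RSAD1. The study placed MHCC-97H cells, a human hepatocellular carcinoma line, in a water bath for 15 minutes and collected them after 24 hours back in the incubator. Its stated themes were histone lactylation, resistance to ferroptosis (a form of cell death driven by iron and lipid peroxidation) and metastasis of liver cancer after incomplete microwave ablation. In the first experiment the cells had the genotype label WT and the R-37 bath was at 37 °C and the R-47 bath at 47 °C. For the second experiment both baths were at 47 °C, and the genotype label was WT (NC) or NFS1 knockdown (NFS1), made with shRNA per the design text. So the NC and NFS1 groups share the heat treatment, and no unheated cells were measured in the second experiment. Each group had 5 RNA-seq libraries of polyA RNA. The hairpin sequence, its vector, the number of clones and whether NC carried a control hairpin were not stated in the labels or the design text.

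Iron-sulfur clusters are built in mitochondria on a scaffold protein, with sulfur that the cysteine desulfurase NFS1 takes from cysteine. Some clusters stay in mitochondria, and a sulfur-bearing product leaves for a second machinery that serves cytosolic and nuclear proteins. The clusters carry electrons in the respiratory chain, bind substrate in aconitase, support the fold of DNA polymerases and helicases, and drive radical chemistry in enzymes that modify tRNA. The cytosolic aconitase ACO1 has a second state without a cluster, iron regulatory protein 1, which binds the mRNAs of iron uptake and storage genes. In liver cells these proteins serve respiration, haem synthesis and nucleotide breakdown. RNA was measured here, so the amount of each protein and whether it held its cluster were not measured.

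The libraries held 32219946 to 39689939 counts each. Levels below are CPM, counts brought to a common library size with TMM (a scaling that sets the bulk of genes equal) over all 20 libraries, and are given for replicates 1 to 5 in order. Levels of different genes are compared only as the deposited FPKM, which divides by gene length. The labels do not tell whether the 5 libraries of each group are separate cultures, and the p-values measure the spread between these libraries, which may be technical. In bulk RNA, fewer cells with a transcript and less of it per cell cannot be told apart. The 10 hepatocyte and liver cancer markers summed to 225.5 to 244.5 CPM in R-37, 177.3 to 200.3 in R-47, 270.9 to 294.4 in NC and 235.9 to 248.7 in NFS1, and none was at 0 in any group. The 5 leukocyte markers summed to 82.2 to 92.8 CPM in R-37, 154.8 CPM or more in R-47, 118.8 to 128.2 CPM in NC and 129.7 to 150.9 CPM in NFS1. The 6 fibroblast and stellate cell markers summed to 17.7 to 26.8, 17.6 to 20.7, 23.4 to 28.5 and 34.8 to 56.7 CPM in the same order of groups, and the 5 endothelial markers to 66.3 to 78.3, 70.01 to 79.2, 56.1 to 69.98 and 51.9 to 58.3 CPM. The defining markers CD3E, THY1 and CDH5 were each at 0 in R-47, NC and NFS1, while CD68, PECAM1, KDR and LUM were at 162, 54.8, 19.4 and 17.7 CPM in R-47. After heating the 3 leukocyte markers that could be tested rose (log2 fold changes of 1.04 for CD68, 1.35 for CD79A and 0.84 for ITGAM). PTPRC and CD3E of the same list had too few counts to test, and PTPRC had 19 counts summed over R-37 and 18 over R-47. Most of the leukocyte sum was CD68, with means of 78.9 CPM in R-37 and 162 CPM in R-47. Of 9 tested hepatocyte and liver cancer markers 5 were lower and 1 higher after heating, against 13.2% lower and 11.9% higher of all genes tested. In NFS1 against NC, 2 of 3 leukocyte markers were higher and 4 of 9 hepatocyte and liver cancer markers lower. Of all genes tested there, 15.7% were higher and 12.5% lower. The marker sums differed between groups, and their part in the results was not tested. NFS1 replicate 4 stood apart from its group, with a chi-square of its counts against each other NFS1 library of 57.3 to 72.5 per gene, against 3.53 to 17.5 between the other 4. It was the highest of its group for 13 of 35 client genes and the lowest for 13. R-37 replicates 1 and 5 differed most within their group, with 54.6 per gene between them. Counts of called clients without each of these libraries are given below.

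The 3 clients that passed the test both after heating and in the NFS1 group were ACO1, FECH and DPYD, and their promoters are shown for that reason. Each run is the 250 bases before the start site in the RefSeq promoter table (GRCh38.p14), written 5′ to 3′ on the gene's strand. ACO1 has its stretch at chr9:32384393-32384642 (+ strand), FECH at chr18:57586703-57586952 (- strand) and DPYD at chr1:97921035-97921284 (- strand). The end of the DPYD run, with its last GC box, lies inside the gene span given for DPYD further on, whose outer end is upstream of the table's start site. Capitals mark the GC box GGGCGG, the core of sites for Sp1-family factors, on either strand.
ACO1: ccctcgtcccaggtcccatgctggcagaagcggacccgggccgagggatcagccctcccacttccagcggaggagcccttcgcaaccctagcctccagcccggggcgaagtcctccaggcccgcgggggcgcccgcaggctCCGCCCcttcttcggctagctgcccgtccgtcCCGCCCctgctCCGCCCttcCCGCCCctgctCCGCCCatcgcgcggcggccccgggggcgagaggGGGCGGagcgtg
FECH: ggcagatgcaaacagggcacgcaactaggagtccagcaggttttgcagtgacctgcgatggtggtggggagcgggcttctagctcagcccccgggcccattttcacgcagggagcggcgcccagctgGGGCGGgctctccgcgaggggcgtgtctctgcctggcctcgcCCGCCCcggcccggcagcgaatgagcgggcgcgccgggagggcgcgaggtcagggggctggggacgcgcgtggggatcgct
DPYD: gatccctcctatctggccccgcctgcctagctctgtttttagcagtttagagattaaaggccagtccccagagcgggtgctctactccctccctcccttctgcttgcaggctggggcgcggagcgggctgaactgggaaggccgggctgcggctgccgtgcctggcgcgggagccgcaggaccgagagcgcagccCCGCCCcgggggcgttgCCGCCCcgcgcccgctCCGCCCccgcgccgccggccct
The GC box was found 6 times in ACO1, 2 times in FECH and 3 times in DPYD, in stretches of 76.8%, 72.4% and 72.4% GC. It was present in 22 of the 35 client promoters in the table (62.9%), in 7 of the 11 clients lower and 2 of the 5 higher in the NFS1 group, in 63.8% of 12130 promoters of tested genes and in 42.3% of all 27305 promoters of this length. None of the 3 stretches held CCAAT, the ETS core CCGGAAGT, the E2F forms TTTGGCGC or TTTCGCGC, the NRF1 form GCGCATGCG or TATAAA on either strand. Of the tested genes' promoters, 34.3% held CCAAT, 6.52% the ETS core, 1.58% an E2F form, 3% the NRF1 form and 5.98% TATAAA. The clients ELP3, ETFDH and DNA2 had no entry.

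Per length, the 4 highest client means in R-37 were those of electron carriers, while the carriers NDUFS7, ETFDH and NDUFS1 stood at ranks 12, 18 and 21 of 38. In R-37, 35 of the 38 clients had a mean of at least 1 FPKM, 20 at least 10 FPKM and 5 at least 50 FPKM. NDUFV2, a complex I subunit, led with 121 ± 4.35 FPKM (SD, n = 5), followed by NDUFV1, which carries the flavin site of complex I, at 78.9 ± 9.74 FPKM. SDHB, the iron-sulfur subunit of succinate dehydrogenase, stood at 72.9 ± 1.21 FPKM and NDUFS8 of complex I at 67.2 ± 11.2 FPKM. NDUFV1 and SDHB lay within 1 SD of each other, as did SDHB and NDUFS8. ABCE1, the ATPase that splits ribosomes after translation ends, had 59.4 ± 8.82 FPKM, and UQCRFS1, the Rieske protein of complex III, 48.9 ± 2.09 FPKM. NDUFS8 and ABCE1 also lay within 1 SD of each other, so which of them stands at rank 4 is not settled. The next levels were those of NTHL1, a base excision glycosylase, at 24.0 ± 4.16 FPKM, CISD3, a mitochondrial CISD protein, at 23.1 ± 3.00 FPKM, and RSAD1, at 20.7 ± 1.67 FPKM. At the low end lay BRIP1, a helicase of DNA crosslink repair, at 1.87 ± 0.30 FPKM, and REV3L, the catalytic subunit of polymerase zeta, at 1.03 ± 0.19 FPKM. In 19 of the 37 steps from one client to the next in this order the difference was within 1 SD.

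**Figure D1:**
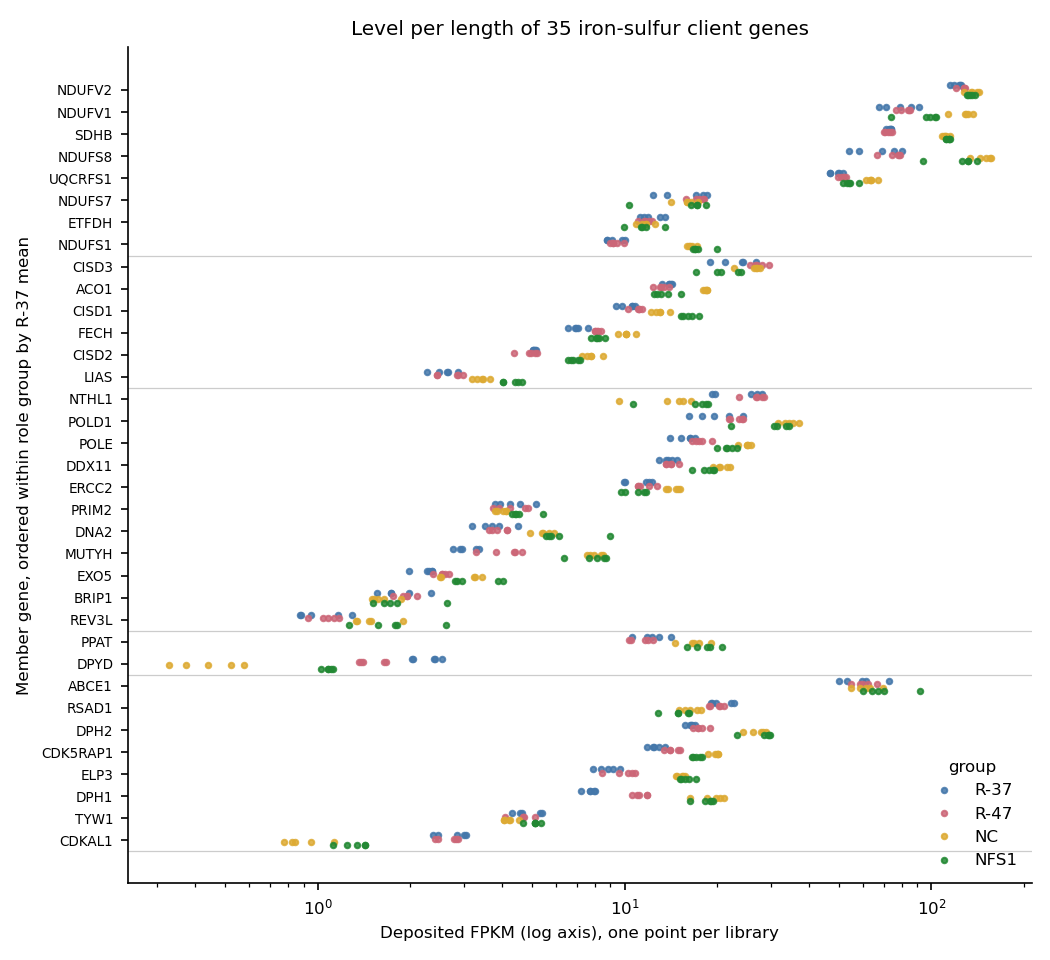
Deposited FPKM (log axis) of the 35 clients with at least 1 FPKM in R-37, 1 point per library and 1 colour per group, in blocks by role and ordered within a block by the R-37 mean. NDUFV2 has the highest level, and DPYD is the client whose groups lie farthest apart, with R-37 highest and NC lowest. FPKM carries library-size scaling alone.

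The clients XDH, MOCS1 and RTEL1 were barely detected. XDH, the xanthine oxidase that ends purine breakdown, had 5, 9, 4 and 0 counts summed over the 5 libraries of R-37, R-47, NC and NFS1. MOCS1, which starts molybdenum cofactor synthesis, had 19 and 21 counts in R-37 and R-47 and 0 in both NC and NFS1, where a count of 0 allows up to 3 counts over the group, for counting error only. RTEL1, a helicase that protects telomeres, had 97, 89, 33 and 28 counts in the 4 groups. XDH and MOCS1 did not pass the filter on low counts, and RTEL1 passed it in all comparisons but that of NFS1 against NC. Without the filter, MOCS1 was called lower in NC than in R-47, as it was with DESeq2 and with limma on log2(FPKM + 1) for all genes. The symbol RTEL1 overlaps a read-through gene, and DDX11, PRIM2 and TYW1 have near-identical copies in the genome, so their counts are uncertain. Other genes overlap NDUFS1 (EEF1B2), ETFDH (PPID and C4orf46), CISD3 (PCGF2), ABCE1 (OTUD4) and TYW1 (SBDS) on the other strand. Reads from both strands may have been counted.

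NFS1 itself, the gene named by the knockdown label, was only slightly lower in the NFS1 group. It lies on chromosome 20 from 35668052 to 35699352 (GRCh38.p14, - strand), where ROMO1 overlaps it on the other strand. Its level was 93.2, 91.8, 90.2, 89.5 and 83.3 CPM in R-37 and 85.0, 87.7, 94.4, 95.7 and 97.2 CPM in R-47, and the ranges overlapped. It was 71.5, 72.7, 71.4, 71.9 and 75.97 CPM in NC and 70.7, 65.2, 64.2, 64.01 and 68.3 CPM in NFS1. Every NFS1 library lay below every NC library, and all 10 lay below the libraries of the first experiment. The difference between NFS1 and NC did not pass the test (edgeR log2 fold change -0.11 with SE 0.05, adjusted p = 0.114), with a 95% interval of -0.22 to 0.00, whose lower end is a loss of 13.99%. An exact permutation test over these 10 libraries on log2 CPM gave a two-sided p of 0.0079 for a difference of -0.13, the smallest p it can give and the one that any groups of 5 without overlap give. The label is therefore used below as a label, "the NFS1 group", and the size of the loss of NFS1 protein was not measured. In the first experiment NFS1 RNA did not pass either (edgeR log2 fold change 0.04 with SE 0.05, adjusted p = 0.575).

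The first comparison asked what the 47 °C bath left in WT cells after 24 hours. Of 36 clients tested, the heated R-47 libraries had 3 higher and 2 lower than R-37, and the other 31 did not pass. DPH1, which starts the diphthamide modification of translation elongation factor 2, and MUTYH, a glycosylase that removes adenine opposite oxidized guanine, rose. FECH, the enzyme that inserts iron into haem, rose slightly. DPYD, which starts the breakdown of uracil and thymine, fell by 0.69 on the log2 scale, and ACO1 fell slightly. The counts correspond to 8.33% higher and 5.56% lower, against 11.9% higher and 13.2% lower of all 14344 genes tested (25.1% called in either direction). The clients' median log2 fold change was -0.02 and that of all genes tested -0.01. Scaled by library size alone, 6 clients were higher and 1 lower, and of all calls the higher ones went from 47.6% to 74.6%. A change given without a unit, here and below, is a log2 fold change. Calls are by edgeR's quasi-likelihood test with Benjamini-Hochberg adjustment over all genes tested, at an adjusted p under 0.05.

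DPYD stood at 19.6, 22.8, 19.4, 22.7 and 23.9 CPM in R-37 and at 14.8, 12.6, 12.3, 12.4 and 14.9 CPM in R-47. The groups did not overlap, and the lowest R-37 library was above the highest R-47 library (edgeR log2 fold change -0.69 with SE 0.09, adjusted p = 3.86e-05). The means were 21.7 ± 2.05 and 13.4 ± 1.34 CPM (SD, n = 5 each). DPH1 was at 24.4, 21.7, 23.9, 23.1 and 23.1 CPM in R-37 and at 30.2, 31.6, 33.9, 30.9 and 33.6 CPM in R-47. All heated libraries were above all unheated ones, with means of 23.2 ± 1.03 and 32.05 ± 1.67 CPM (edgeR log2 fold change 0.47 with SE 0.06, adjusted p = 5.79e-05). DPH1 shares sequence on its strand with OVCA2, so some reads could come from either gene. MUTYH was at 10.99, 10.2, 12.1, 12.4 and 10.7 CPM in R-37 and at 11.5, 13.3, 15.3, 15.98 and 15.4 CPM in R-47. R-47 replicate 1 fell among the unheated libraries and the other 4 lay above them (edgeR log2 fold change 0.35 with SE 0.10, adjusted p = 0.0146). MUTYH is overlapped on the other strand by TOE1, and the sources used here do not give the strand setting of the counting.

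ACO1 was at 119, 119.5, 112, 118 and 119.6 CPM in R-37 and at 99.4, 108, 106, 110.5 and 104.4 CPM in R-47. The groups did not overlap, though the means were close, 118 ± 3.09 against 106 ± 4.11 CPM (edgeR log2 fold change -0.15 with SE 0.04, adjusted p = 0.0217). FECH was at 62.8, 66.8, 57.8, 60.8 and 60.9 CPM in R-37 and at 66.9, 68.5, 67.1, 69.6 and 67.5 CPM in R-47. Its highest unheated library, replicate 2, lay just under the lowest heated one (edgeR log2 fold change 0.14 with SE 0.05, adjusted p = 0.0466). Neither call held throughout. FECH lost its call when any 1 of R-37 replicates 3, 4 and 5 or of the 5 R-47 libraries was left out (highest adjusted p over all settings 0.115), and ACO1 when R-37 replicate 2 or 4 or R-47 replicate 5 was. Scaled by library size alone, ACO1 was not called (-0.08, adjusted p = 0.241, edgeR). DPYD, DPH1 and MUTYH passed in all 22 settings tried. Without R-37 replicate 1, 5 clients were higher and 3 lower, and without R-37 replicate 5, 2 and 2.

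None of the 8 electron carriers passed in this comparison, against 25.1% called of all genes tested. SDHB and NDUFV1 were called lower with length and GC offsets in the fit (adjusted p = 0.000683 and 0.000295, edgeR). The log2 fold changes of the carriers were -0.14 to 0.08. Their 95% intervals ran at the widest from -0.27 (ETFDH, which feeds electrons from fatty acid oxidation to ubiquinone) to 0.29 (NDUFS8). SDHB was at 82.9 ± 1.68 CPM in R-37 and 77.4 ± 2.0 CPM in R-47 without overlap, yet did not pass (adjusted p = 0.132, edgeR, n = 5 each). Among the other mitochondrial clients, LIAS, the lipoate synthase, and CISD1, the outer-membrane protein mitoNEET, had log2 fold changes of 0.00 and 0.03. CISD2, which sits on the endoplasmic reticulum and the outer mitochondrial membrane, had -0.13 (adjusted p = 0.116, edgeR), and CISD3 had 0.17 (adjusted p = 0.135, edgeR). Of the 12 replication and repair enzymes only MUTYH passed (8.33%). The leading-strand polymerase POLE and the lagging-strand polymerase POLD1 had 0.09 and 0.14. The primase subunit PRIM2, the TFIIH helicase ERCC2, the helicase-nuclease DNA2, BRIP1, REV3L, DDX11 and NTHL1 had values between -0.09 and 0.08, EXO5, a single-strand exonuclease, 0.10, and RTEL1 -0.22 with an interval of -0.86 to 0.41.

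PPAT, the first enzyme of purine synthesis, was at 50.9 ± 5.15 CPM in R-37 and 44.3 ± 3.39 CPM in R-47, and did not pass (log2 fold change -0.19, adjusted p = 0.0689, edgeR), and passed as lower only without R-37 replicate 1 (adjusted p = 0.0184). Among the tRNA-modifying enzymes, CDKAL1 and CDK5RAP1, which add a methylthio group, had -0.12 and 0.10, and TYW1, which helps build wybutosine, had -0.14. ELP3, the catalytic subunit of Elongator, had 0.10, DPH2, the partner of DPH1, 0.03, ABCE1 -0.05 and RSAD1 -0.13. So DPH1 passed and DPH2 did not, with intervals of 0.34 to 0.60 and -0.08 to 0.14, and the difference between these genes was not tested. The 3 clients that rose had a median GC content of 59.3%, the 2 that fell 43.2%, and the 31 that did not pass 46.4%. Over all genes tested those that rose had a median of 56.0% and those that fell 44.5%, and the part of GC content in the clients' calls was not tested beyond the fit that follows. With smooth length and GC offsets in the fit, 6 clients were higher and 6 lower, ACO1 was not called, and DPYD, DPH1, MUTYH and FECH were.

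**Figure D2:**
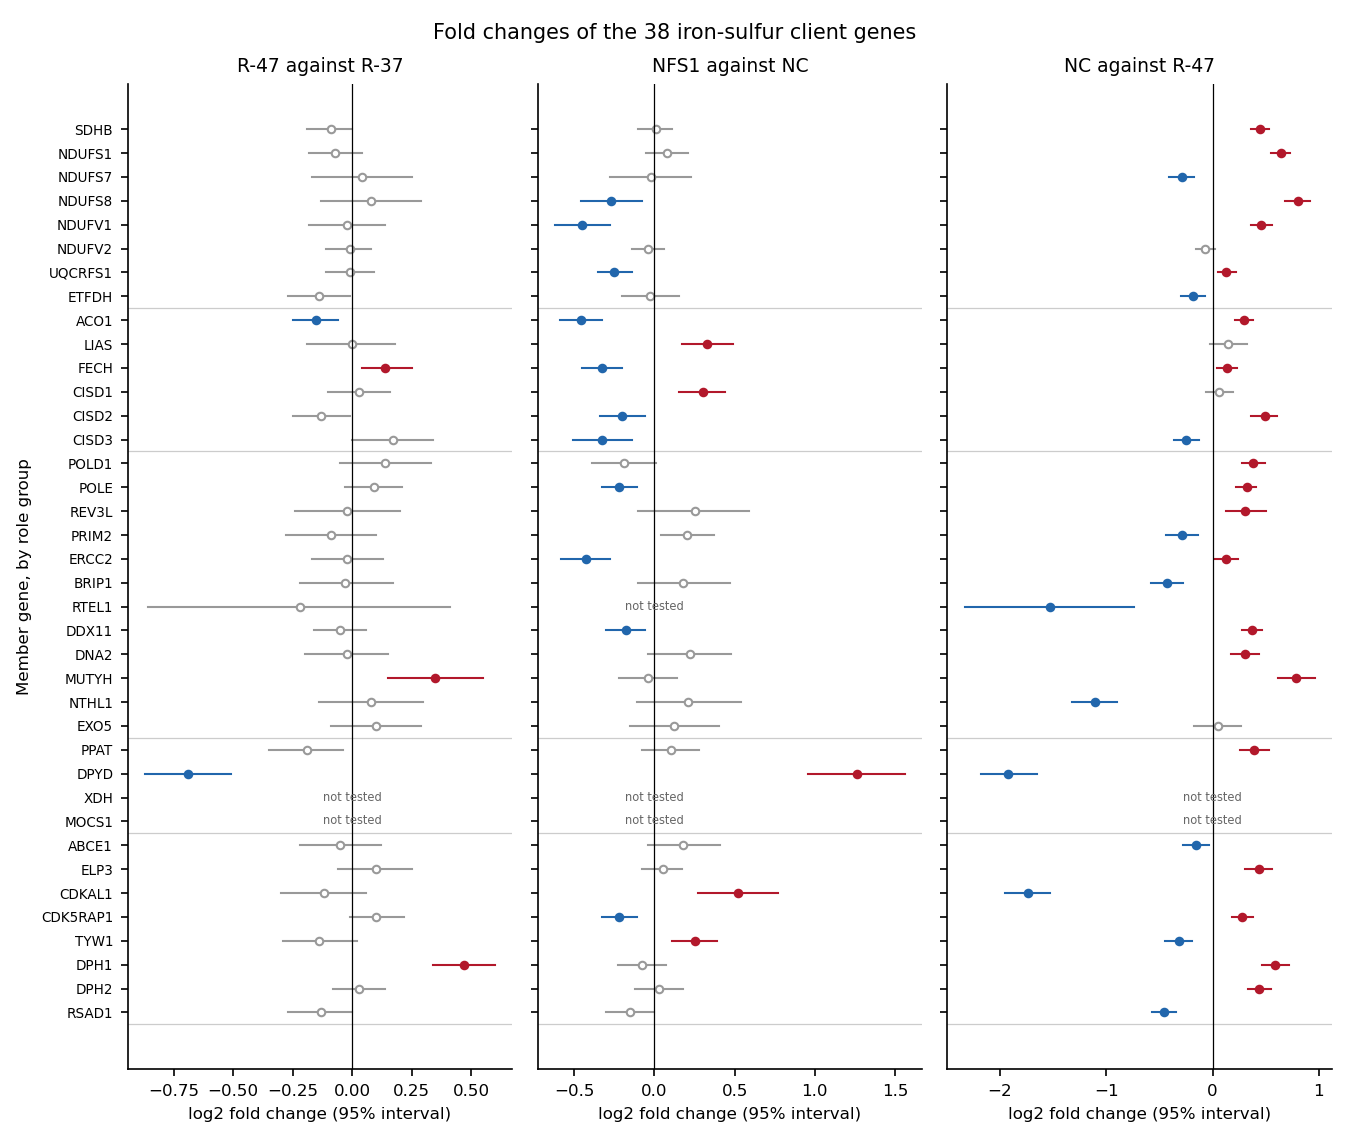
Log2 fold changes of the 38 clients with 95% intervals, in rows by role group, for heat (left), the NFS1 group against NC (middle) and NC against R-47 (right). Filled red and blue points passed the edgeR test as higher and lower, open grey points did not, and the horizontal scales differ between panels. The left panel holds 5 filled points, the middle 16 and the right 32, and DPYD lies to the left, to the right and to the left again.

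The machinery that supplies the clients changed in a few members after heating. Of 17 mitochondrial assembly genes 2 were higher and 4 lower (11.8% and 23.5%, against 11.9% and 13.2% of all genes), with a median of 0.04. NFU1, a late-acting carrier of clusters, rose from 18.9 to 21.6 CPM (edgeR log2 fold change 0.20 with SE 0.06, adjusted p = 0.0210), and HSPA9, the chaperone that releases clusters from the scaffold, fell from 643 to 519.7 CPM (edgeR log2 fold change -0.30 with SE 0.04, adjusted p = 8.95e-05). Of 10 tested genes of the cytosolic machinery, 1 was lower, the glutaredoxin GLRX3, at -0.16 on the log2 scale (adjusted p = 0.0451, edgeR). Of 7 tested targets and partners of iron regulatory protein 1, 4 were lower (57.1%, against 13.2% of all genes) and none higher, among them TFRC, the transferrin receptor, at -0.44. Of 5 other iron-sulfur proteins tested, 1 was lower, the chromosome motor KIF4A at -0.12.

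Genes that work beside the clients without holding their cluster were compared in the same way. Of 115 such subunits and pathway partners, 2 were higher and 10 lower, against the 25.1% called among all genes. UQCRC2, a core subunit of complex III, fell from 224 to 178 CPM (edgeR log2 fold change -0.33 with SE 0.04, adjusted p = 2.98e-05), while UQCRFS1 of the same complex, with 169 CPM in R-37 and 167 CPM in R-47, was not called. POLD4, a small subunit of polymerase delta, rose by 0.47, while its catalytic subunit POLD1 had 0.14 (adjusted p = 0.267, edgeR). MPG, another DNA glycosylase, rose by 0.51 beside MUTYH, and UNG, the uracil glycosylase, fell by 0.20. Further falls were those of PAICS in purine synthesis (-0.27), ELP4 of Elongator (-0.35), MOCS2 of molybdenum cofactor synthesis (-0.30), NDUFB6 of complex I (-0.22) and REV1 (-0.24). Of the 7 other haem synthesis enzymes, the 7 lipoate transfer and lipoylated proteins, the 9 other TFIIH subunits and the 6 other diphthamide genes, none passed.

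The second comparison asked how heated cells labelled NFS1 knockdown differed from heated WT cells. Of 35 clients tested, 5 were higher and 11 lower in the NFS1 group. ACO1, NDUFV1 and ERCC2 changed by -27.2%, -26.8% and -25.8%, FECH and CISD3 by -20.2% and -20.3%, and NDUFS8, UQCRFS1, CISD2, POLE, DDX11 and CDK5RAP1 by -16.8% to -11.7%. DPYD was 2.39-fold higher, CDKAL1 1.43-fold, LIAS 1.254-fold, CISD1 1.23-fold and TYW1 1.19-fold. The shares were 14.3% higher and 31.4% lower, against 15.7% higher and 12.5% lower of all 15086 genes tested (28.1% called in either direction). The median log2 fold change was -0.02 over the clients and 0.02 over all genes tested. Of the 16 calls, those of ACO1, CDK5RAP1, CDKAL1, CISD1, DPYD, ERCC2, FECH, LIAS, NDUFV1 and UQCRFS1 held in all settings in which the gene was tested.

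In the respiratory chain 3 of 8 carriers were lower and none higher. These 37.5% stand against 12.5% lower of all genes tested. Of 32 complex I subunits outside the client list 28.1% were lower. Of 13 other subunits of complexes II and III and of electron transfer flavoprotein, 46.15% were lower. NDUFV1 was at 166, 191, 198, 185 and 189 CPM in NC and at 148, 133, 138, 106 and 147 CPM in NFS1. The groups did not overlap, and NFS1 replicate 4 was the lowest of all (edgeR log2 fold change -0.45 with SE 0.08, adjusted p = 0.000941). NDUFV1 lies on chromosome 11 from 67606936 to 67612554 (+ strand, GRCh38.p14). UQCRFS1 was at 177, 185, 181, 190.3 and 180.3 CPM in NC and at 166, 149, 147, 145 and 154 CPM in NFS1. All NC libraries were above all NFS1 libraries (edgeR log2 fold change -0.25 with SE 0.05, adjusted p = 0.00188). NDUFS8 had means of 101 ± 6.44 and 83.4 ± 12.1 CPM with overlap (edgeR log2 fold change -0.27 with SE 0.09, adjusted p = 0.0378), and its call was lost in 11 of 24 settings. The other complex I subunits NDUFS1, NDUFS7 and NDUFV2 had log2 fold changes of 0.08, -0.02 and -0.04, SDHB 0.01 and ETFDH -0.03, with 95% intervals between -0.28 and 0.23. NDUFV1 and NDUFV2 sit together in the tip of complex I, and their intervals, -0.62 to -0.28 and -0.14 to 0.06, did not overlap.

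All 6 genes of the group with aconitase, lipoate synthase, ferrochelatase and the CISD proteins passed, 4 lower and 2 higher. The shares were 66.7% lower and 33.3% higher, against 12.5% and 15.7% of all genes tested. The calls of CISD2 and CISD3 did not hold in every setting. ACO1 was at 128, 130.5, 130.1, 128 and 129 CPM in NC, with little spread, and at 96.9, 84.1, 86.7, 106 and 90.9 CPM in NFS1. Every NFS1 library was below every NC library, and 4 of the 5 were below 99.4 CPM, the lowest library of the first experiment (edgeR log2 fold change -0.46 with SE 0.06, adjusted p = 9.87e-05). ACO1 lies on chromosome 9 from 32384643 to 32454769 (+ strand). FECH was at 80.4, 75.0, 73.7, 69.2 and 73.3 CPM in NC and at 62.8, 54.6, 58.3, 58.8 and 58.3 CPM in NFS1. These groups did not overlap either (edgeR log2 fold change -0.33 with SE 0.06, adjusted p = 0.000902), and FECH lies on chromosome 18 from 57544377 to 57586702 (- strand). LIAS moved the other way, from 11.99 ± 0.586 to 14.8 ± 0.902 CPM without overlap (edgeR log2 fold change 0.33 with SE 0.07, adjusted p = 0.00491). LIAS is overlapped on the other strand by RPL9, an abundant ribosomal protein gene, so its counts may hold reads of RPL9.

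The 3 CISD genes split by member. CISD1 was at 29.1, 31.5, 27.9, 28.5 and 26.7 CPM in NC and at 35.4, 35.2, 33.0, 38 and 33.1 CPM in NFS1. All NFS1 libraries were above all NC libraries (edgeR log2 fold change 0.30 with SE 0.07, adjusted p = 0.00468). CISD1 lies on chromosome 10 from 58269162 to 58289586 (+ strand), and of 565 tested genes of chromosome 10, 375 were higher (66.4%) and 11 lower in this comparison, with a median log2 fold change of 0.48. The 3 genes tested within 1 Mb of CISD1 were all higher. In NC against R-47, 332 of 570 tested genes of chromosome 10 were lower in NC (58.25%) and 151 higher (26.49%), with a median of -0.46. Of the 4 genes tested within 1 Mb of CISD1 there, 1 was higher and 1 lower. This chromosome was looked at after the values were seen, and its part in the CISD1 difference was not tested. CISD2 was lower, at 42.5 ± 2.83 against 36.6 ± 1.75 CPM without overlap (edgeR log2 fold change -0.20 with SE 0.06, adjusted p = 0.0314), but lost its call in 9 of 24 settings. CISD3 was lower, at 61.95 ± 4.49 against 48.8 ± 6.71 CPM (edgeR log2 fold change -0.33 with SE 0.09, adjusted p = 0.0115), with NFS1 replicates 1 and 5 inside the NC range.

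Of 11 replication and repair enzymes tested 3 were lower and none higher. The share called in either direction was 27.3%, near the 28.1% of all genes tested, of which 12.5% were lower. ERCC2, the helicase of transcription factor TFIIH that opens DNA in nucleotide excision repair, was at 59.9, 66.01, 63.96, 57.8 and 62.4 CPM in NC and at 49.5, 39.97, 45.8, 42.5 and 49.6 CPM in NFS1. The groups did not overlap, and the NFS1 values were also below all those of R-37 and R-47 (edgeR log2 fold change -0.43 with SE 0.07, adjusted p = 0.000380). ERCC2 lies on chromosome 19 from 45349837 to 45370573 (- strand). POLE went from 205 ± 7.03 to 175 ± 10.4 CPM (edgeR log2 fold change -0.22 with SE 0.05, adjusted p = 0.00636) and DDX11, a helicase of sister chromatid cohesion, from 139 ± 6.61 to 121 ± 7.18 CPM (edgeR log2 fold change -0.18 with SE 0.06, adjusted p = 0.0258), both without overlap. The DDX11 call was lost in 7 of 24 settings and the POLE call without NFS1 replicates 2 and 3. POLD1 had -0.19 and did not pass (adjusted p = 0.152, edgeR). PRIM2 (0.20), BRIP1 (0.18), DNA2 (0.22), REV3L (0.25), NTHL1 (0.21) and EXO5 (0.12) did not pass either, nor did MUTYH (-0.04). DNA2 lies on chromosome 10, as CISD1 does, where 66.4% of 565 tested genes were higher. Of 22 genes tested within 1 Mb of DNA2, 16 were higher and 0 lower. The part of this chromosome in the DNA2 value was not tested. For PRIM2, BRIP1, DNA2 and REV3L the highest NFS1 library was replicate 4, at 35.4, 29.1, 38.8 and 39.96 CPM, and for NTHL1 the lowest was replicate 4, at 10.1 CPM. Without that replicate NTHL1 passed as higher, and 6 clients were higher and 11 lower in all.

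Among the remaining clients DPYD had the largest change. It was at 3.50, 4.59, 2.92, 2.55 and 4.09 CPM in NC and at 8.49, 8.33, 7.78, 8.70 and 8.38 CPM in NFS1, and all 10 libraries of the first experiment were above these. The lowest NFS1 library was above the highest NC library (edgeR log2 fold change 1.26 with SE 0.14, adjusted p = 2.00e-05). DPYD lies on chromosome 1 from 97077743 to 97921059 (- strand) and 2 genes were tested within 1 Mb of it, 1 of them higher. CDKAL1 was at 4.55, 4.64, 4.23, 5.13 and 6.12 CPM in NC and at 7.73, 6.49, 5.89, 7.63 and 7.19 CPM in NFS1. NFS1 replicate 3 lay below NC replicate 5, so the ranges overlapped (edgeR log2 fold change 0.52 with SE 0.12, adjusted p = 0.00474). TYW1 rose from 26.5 ± 1.47 to 31.02 ± 1.34 CPM (edgeR log2 fold change 0.25 with SE 0.06, adjusted p = 0.0110) and CDK5RAP1 fell from 67.9 ± 1.95 to 57.6 ± 2.17 CPM (edgeR log2 fold change -0.22 with SE 0.05, adjusted p = 0.00521), both without overlap. The methylthio-transferases CDKAL1, which acts on cytosolic tRNA, and CDK5RAP1, which acts on mitochondrial tRNA, thus passed in opposite directions. PPAT, ABCE1, ELP3, DPH1, DPH2 and RSAD1 did not pass, with log2 fold changes of 0.10, 0.18, 0.05, -0.08, 0.03 and -0.15.

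**Figure D3:**
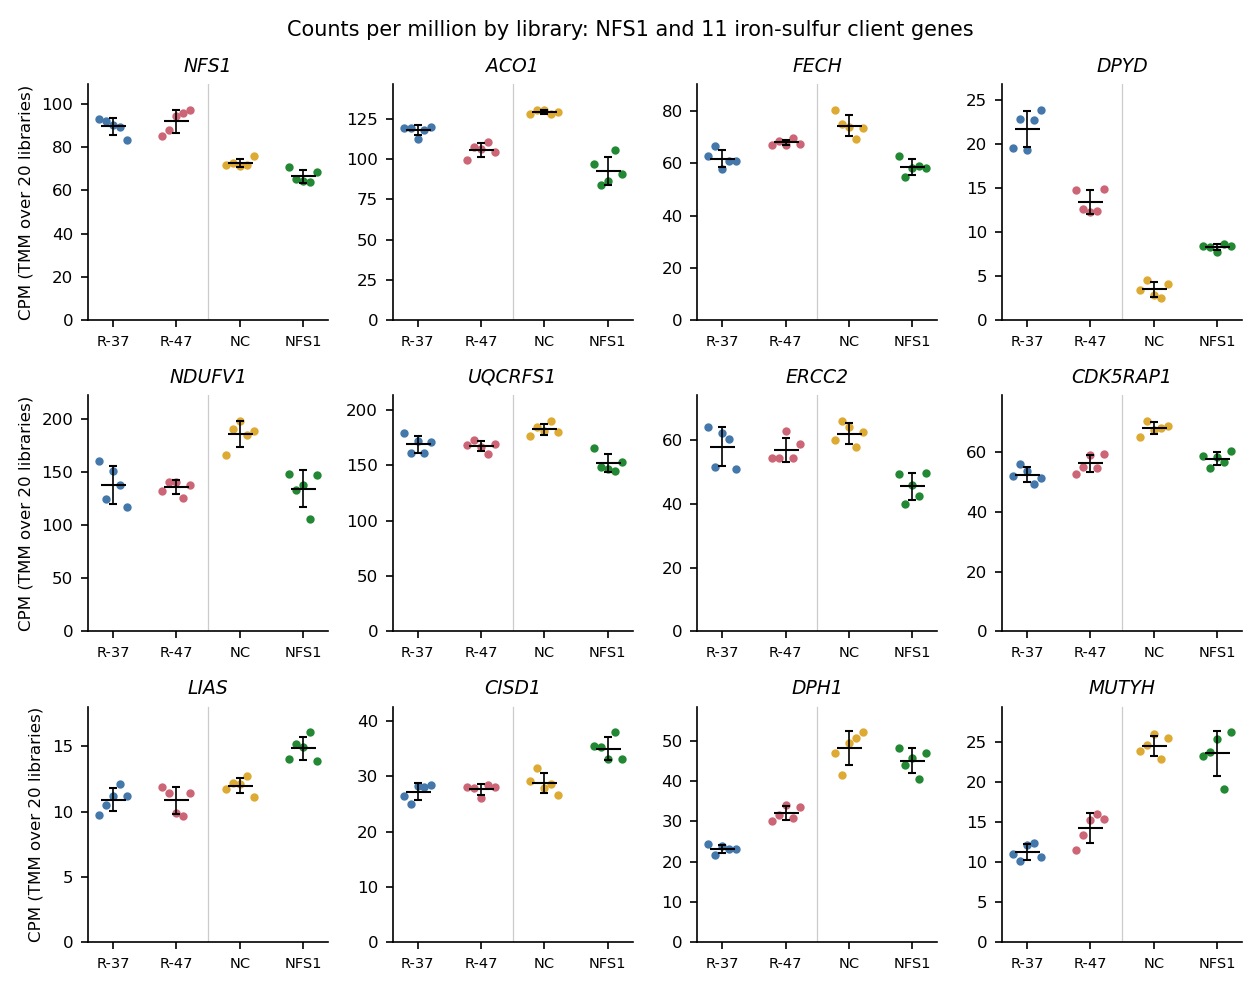
CPM (TMM over 20 libraries) of NFS1 and 11 clients, 1 point per library in replicate order, with the group mean (line) and SD (bar). The grey line parts the first experiment (R-37, R-47) from the second (NC, NFS1). In the second experiment all 5 NFS1 libraries lie below all 5 NC libraries for ACO1, FECH, NDUFV1, UQCRFS1, ERCC2 and CDK5RAP1 and above them for DPYD, LIAS and CISD1.

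In the assembly machinery of 17 mitochondrial genes 1 was higher and 3 lower in NFS1 than in NC. The shares were 5.88% and 17.65%, against 15.7% and 12.5% of all genes tested. In either direction 23.5% of them were called, against 28.1% of all genes. ISCU, the scaffold on which NFS1 builds clusters, rose from 69.8 to 77.6 CPM (edgeR log2 fold change 0.17 with SE 0.06, adjusted p = 0.0363), and GLRX5, which hands clusters on, fell from 103 to 80.2 CPM (edgeR log2 fold change -0.35 with SE 0.06, adjusted p = 0.000558). Of 10 cytosolic machinery genes tested 3 were higher and 2 lower, led by GLRX3, a chromosome 10 gene, which rose from 56.5 to 94.4 CPM (edgeR log2 fold change 0.76 with SE 0.06, adjusted p = 1.90e-06), while CIAPIN1, an early electron donor of that pathway, fell by 0.20. Of 7 targets and partners of iron regulatory protein 1, 2 were lower (28.6%) and none higher. FTH1, the ferritin heavy chain, fell from 3474 to 2458 CPM (edgeR log2 fold change -0.48 with SE 0.06, adjusted p = 3.98e-05). Of 5 other iron-sulfur proteins, FDX1, the electron donor of mitochondrial steroid synthesis, fell by 0.46.

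In the NFS1 group, of 115 partner genes 9 were higher and 29 lower (7.83% and 25.2%, against 15.7% and 12.5% of all genes), with a median log2 fold change of -0.10 against 0.02 over all genes tested. Of 32 complex I subunits outside the client list 9 were lower and 2 higher, among them NDUFB2 at -0.48 and NDUFB8, a chromosome 10 gene, at 0.37. Of 13 other subunits of complexes II and III and of electron transfer flavoprotein, 6 were lower and none higher, led by SDHD (-0.35), while SDHB of the same complex II had 0.01. Of 11 polymerase and primase partners 5 were lower and none higher, and POLA2, which tethers primase to polymerase alpha, fell from 173 to 121 CPM (edgeR log2 fold change -0.50 with SE 0.05, adjusted p = 1.04e-05). ERCC3, the other helicase of TFIIH, fell by 0.26 beside ERCC2, and the remaining 8 of 9 other TFIIH subunits did not pass. Of 7 lipoate genes 3 were lower and 1 higher. DLST, a lipoylated enzyme of the citric acid cycle, fell by 0.37, and LIPT1 rose by 0.32 together with LIAS. UROS, a haem synthesis enzyme on chromosome 10, rose by 0.23, where FECH fell. APEX1 (0.52), ELP4 (0.50) and DPH3 (0.31) rose, and UNG (-0.19), ELP6 (-0.19), PRPS1 (-0.50) and MTARC2 (-0.71) fell.

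In NFS1 against NC the median GC content of the clients was 55.6% for the 11 lower ones, 40.7% for the 5 higher ones and 48.0% for the 19 that did not pass. Over all genes tested it was 52.3% for lower and 46.1% for higher genes. With length and GC offsets in the fit, all 11 lower and all 5 higher clients kept their calls, and POLD1 as lower and ABCE1, DPH2 and NTHL1 as higher were added. Without NFS1 replicates 2 and 3 together, 4 clients were higher and 6 lower, and CISD2, CISD3, DDX11, NDUFS8, POLE and TYW1 lost their calls. Without NC replicate 1 and NFS1 replicate 4 together, 6 were higher and 11 lower.

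**Figure D4:**
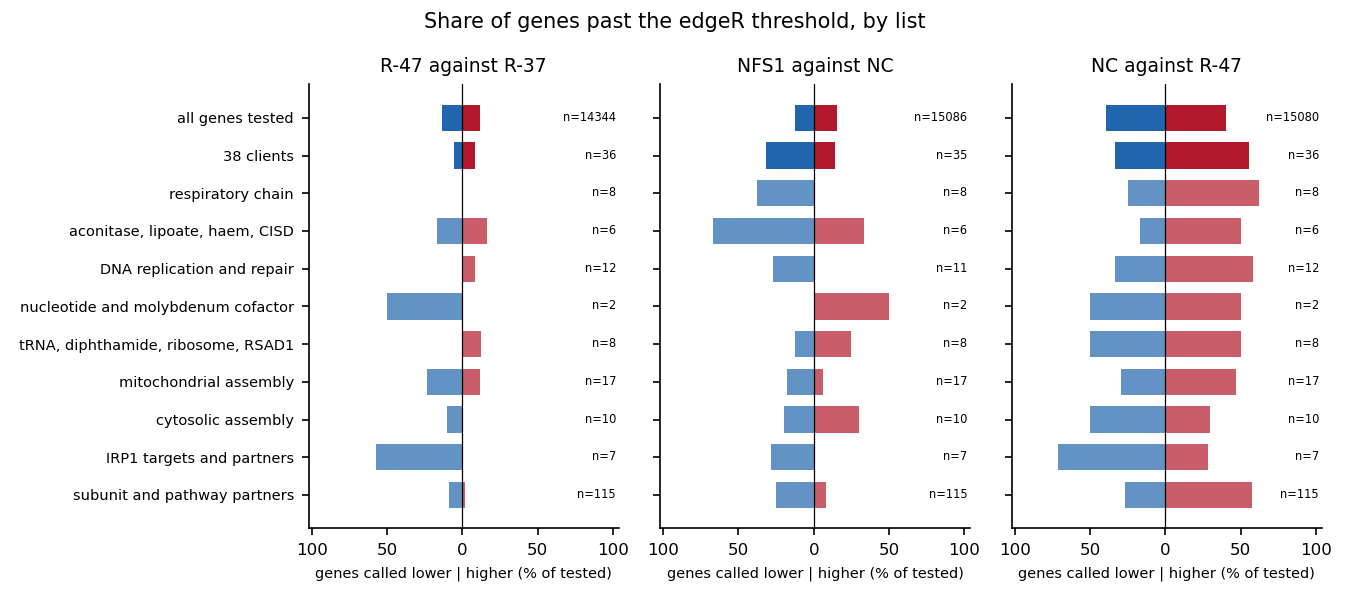
Share of tested genes called lower (blue, to the left) and higher (red, to the right) by the edgeR test in each comparison, for all genes, the 38 clients, their 5 role groups, the cluster assembly machineries, the targets and partners of iron regulatory protein 1 (IRP1) and 115 partner genes, with the number tested at the right. The clients lie at 5.56% lower and 8.33% higher after heating, at 31.4% and 14.3% in NFS1 against NC, and at 33.3% and 55.6% in NC against R-47.

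The heat and NFS1 comparisons share no library, so their calls can be set beside each other. Of the 35 clients tested in both, ACO1, FECH and DPYD passed in both, 60.0% of the 5 heat calls and 18.8% of the 16 calls in NFS1. ACO1 was lower in both (log2 fold change -0.15 and -0.46). FECH was higher after heating and lower in NFS1 (0.14 and -0.33), and DPYD lower after heating and higher in NFS1 (-0.69 and 1.26). Over all 13777 genes tested in both, 1196 passed in both, 34.3% of the heat calls and 29.5% of the NFS1 calls, 434 in the same and 762 in the opposite direction. Without R-37 replicate 4 neither ACO1 nor FECH was called after heating, and DPYD was 1 of 3 heat calls. DPYD had means of 21.7, 13.4, 3.53 and 8.34 CPM in R-37, R-47, NC and NFS1, and FECH 61.8, 67.9, 74.3 and 58.6 CPM.

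NC and R-47 carry the same genotype label and the same treatment label, and differ in the experiment they belong to, so this comparison measures what lies between the experiments. It shares R-47 with the first comparison and NC with the second, and its values stand beside theirs only. Of 36 clients tested 20 were higher and 12 lower in NC, 55.6% and 33.3%, against 40.1% higher and 39.6% lower of all 15080 genes tested (79.7% called in either direction). DPYD, CDKAL1, RTEL1 and NTHL1 were the clients with the largest falls, with log2 fold changes of -1.92, -1.74, -1.53 and -1.11, and NDUFS8, MUTYH, NDUFS1 and DPH1 had the largest rises, 1.74-fold, 1.73-fold, 1.56-fold and 1.51-fold. The clients' median log2 fold change was 0.14 and that of all genes 0.01. With library size alone, 23 clients were higher and 7 lower, and of all calls the higher ones went from 50.3% to 61.2%, and that scaling moved the median of all genes by 0.18. Batch, culture and any vector in NC cannot be told apart here.

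Of the electron carriers 5 were higher and 2 lower in NC. The shares were 62.5% and 25.0%, against 40.1% and 39.6% of all genes tested. In either direction 87.5% of them were called, against 79.7% of all genes. NDUFS1, the largest subunit of complex I, was at 114, 112, 115, 123 and 118 CPM in R-47 and at 190.0, 184, 178, 173 and 178 CPM in NC (edgeR log2 fold change 0.64 with SE 0.04, adjusted p = 5.84e-12). NDUFS8 was at 61.2, 61.9, 58.4, 51.2 and 60.5 CPM in R-47 and at 92.4, 108, 106, 102.2 and 97.99 CPM in NC (edgeR log2 fold change 0.80 with SE 0.06, adjusted p = 2.30e-11). SDHB was at 78.7, 80.2, 75.8, 76.9 and 75.6 CPM in R-47 and at 107, 110.1, 103.7, 103.5 and 101 CPM in NC (edgeR log2 fold change 0.45 with SE 0.04, adjusted p = 3.80e-09). In each of these no library of one group reached the other. NDUFV1 (0.46) and UQCRFS1 (0.13) were also higher, NDUFS7 (-0.29) and ETFDH (-0.18) lower, and NDUFV2 (-0.07) did not pass. So the subunits of complex I did not move as 1 block, with NDUFS8 and NDUFS7 in opposite directions. Scaled by library size alone, NDUFV2 passed as higher (0.11), and NDUFS7 and ETFDH lost their calls. In the next group ACO1 (0.30), CISD2 (0.49) and FECH (0.14) were higher and CISD3 (-0.25) lower, while LIAS (0.15) and CISD1 (0.06) did not pass.

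Of 12 replication and repair enzymes 7 were higher and 4 lower in NC. The shares were 58.3% and 33.3%, against 40.1% and 39.6% of all genes tested. MUTYH was at 11.5, 13.3, 15.3, 15.98 and 15.4 CPM in R-47 and at 23.9, 24.6, 25.98, 22.9 and 25.5 CPM in NC, without overlap (edgeR log2 fold change 0.79 with SE 0.08, adjusted p = 9.29e-09). NTHL1 was at 30.7, 29.2, 29.7, 25.5 and 30.9 CPM in R-47 and at 9.28, 13.3, 15.8, 14.7 and 14.3 CPM in NC, so that every NC library was below every R-47 library (edgeR log2 fold change -1.11 with SE 0.10, adjusted p = 1.45e-09). NTHL1 lies on chromosome 16 from 2039820 to 2047834 (- strand) and is overlapped on the other strand by TSC2. Of 71 genes tested within 1 Mb of it 45 were lower and 17 higher, with a median of -0.36. Over chromosome 16, 47.0% of 649 tested genes were lower and 32.2% higher, with a median of -0.13. The window around NTHL1 was looked at after the values were seen, and its part was not tested. POLD1 (0.38), POLE (0.32), DDX11 (0.37), REV3L (0.31), DNA2 (0.31) and ERCC2 (0.13) were higher, and BRIP1 (-0.43), PRIM2 (-0.29) and RTEL1 (-1.53) lower. EXO5 did not pass (0.05). The ERCC2 call was lost in 7 of 22 settings, among them those without R-47 replicate 1, 2 or 4 or NC replicate 2 or 3, and the REV3L call with all 20 libraries in 1 fit.

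DPYD was at 14.8, 12.6, 12.3, 12.4 and 14.9 CPM in R-47 and at 3.50, 4.59, 2.92, 2.55 and 4.09 CPM in NC, and CDKAL1 at 17.8, 17.3, 17.6, 15.2 and 14.9 CPM in R-47 and at 4.55, 4.64, 4.23, 5.13 and 6.12 CPM in NC. In both no NC library came near an R-47 library (edgeR log2 fold change -1.92 with SE 0.13, adjusted p = 7.59e-12; edgeR log2 fold change -1.74 with SE 0.10, adjusted p = 4.81e-13). Of 5 genes tested within 1 Mb of CDKAL1 on chromosome 6, 4 were lower and 1 higher, with a median of -1.40. Of all genes tested 39.6% were lower and 40.1% higher, with a median of 0.01. DPH1 was at 30.2, 31.6, 33.9, 30.9 and 33.6 CPM in R-47 and at 46.99, 41.5, 49.4, 50.6 and 52.2 CPM in NC, a rise without overlap (edgeR log2 fold change 0.59 with SE 0.06, adjusted p = 1.34e-08), and DPH2 rose as well (0.44). PPAT (0.39), ELP3 (0.44) and CDK5RAP1 (0.28) were higher, and TYW1 (-0.32), RSAD1 (-0.46) and ABCE1 (-0.16) lower. ABCE1 was called in 12 of 22 settings. It lost its call without R-47 replicate 1 or NC replicate 3, 4 or 5, and its sign turned to 0.02 with library size alone. For DPYD the difference between the experiments, at -1.92, stands beside -0.69 after heating and 1.26 in NFS1.

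In NC against R-47 the machinery was called at a rate near that of all genes. The shares called in either direction were 76.5% of mitochondrial and 80.0% of cytosolic assembly genes and 84.35% of partners, against 79.7% of all genes. Of 17 mitochondrial assembly genes 8 were higher and 5 lower (47.1% and 29.4%, against 40.1% and 39.6% of all genes). GLRX5 was at 0.75 and ISCU at -0.54. Of 10 cytosolic genes 3 were higher and 5 lower, with CIAPIN1 at 0.86 and CIAO3, which links early and late steps of that machinery, from 35.2 to 6.22 CPM (edgeR log2 fold change -2.49 with SE 0.10, adjusted p = 6.07e-16). NFS1 was lower in NC than in R-47 (edgeR log2 fold change -0.33 with SE 0.05, adjusted p = 1.57e-06) beside -0.11 for the NFS1 group against NC, and these values were not tested against each other. Of 7 targets and partners of iron regulatory protein 1, 2 were higher and 5 lower (28.6% and 71.4%). FBXL5, the iron-sensing subunit of a ubiquitin ligase, was at 0.30 and SLC40A1, the iron exporter ferroportin, at -2.20. KIF4A was lower (-0.80). Of 115 partners 66 were higher and 31 lower (57.4% and 27.0%, against 40.1% and 39.6% of all genes), with UQCRC1 at 1.33, UQCRC2 at -0.83, POLA2 at 1.22, POLA1 at -0.25, ELP6 at 1.28, ELP4 at -1.09, ALAS1 at 0.55, DLST at 1.02, PFAS at 0.60 and GPHN at -1.61. NEIL1, a DNA glycosylase, went from 0.598 to 4.70 CPM (edgeR log2 fold change 2.97 with SE 0.21, adjusted p = 1.81e-11).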

How the data were processed

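RNA-seq of MHCC-97H cells, 5 libraries in each of 4 groups, was analysed from 2 deposited tables of the whole series, 1 of counts and 1 of FPKM. Per the submitters' processing notes the tools were fastp, HISAT2 and HTSeq with genome hg38, and the protocols in the labels give TRIzol extraction and a polyA library kit. The sources used here do not give versions, annotation or strand setting. Whole-number counts per gene symbol and FPKM values for the same libraries were deposited by the authors, and both were used as deposited. Each FPKM value equals the count divided by 1 length per gene and by the library total.

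Counts were tested with edgeR 4.0.16 (R 4.3.3) on the 2 groups of each comparison: filterByExpr with a minimum count of 10 and a total of 15, TMM scaling, the quasi-likelihood test and Benjamini-Hochberg adjustment over all genes tested, with calls at 0.05. Groups are those of the labels. Library totals of 32219946 to 39689939 counts limit genes under about 10 counts, and intervals cover the spread between libraries. Levels are CPM with TMM over all 20 libraries, a scale slightly different from that of the pairwise fits. The code was tested on simulated counts. Alternatives were other scalings, filters and tools (DESeq2 1.42.0, limma 3.58.1 on voom weights or log2(FPKM + 1) and log2(FPKM + 0.1)), 1 fit of all libraries, a replicate block, length and GC offsets, and libraries left out.

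The client genes, the lists of machinery, partner and marker genes and the tests were chosen with earlier results of these data known. All clients and NFS1 are named. From each other list, at most the gene of smallest adjusted p in each direction is named per comparison. Values in every library are given for up to 8 called clients of smallest adjusted p per comparison and for those called both after heating and in NFS1. Gene coordinates and promoters are from RefSeq (GRCh38.p14). Replicate numbers did not pair the samples. A search for protein motifs was not run.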

Additional observations from a re-analysis of the deposited data

Results flagged for a closer look

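In groups of 5 libraries, 1 library was set against the other 4 by Dixon's test for a single far value, over 148 combinations of gene and group, and 11 stood out. Chance marks about 1 in 20. Of these, 6 were in NFS1 replicate 4. There PRIM2 was at 35.4 CPM with the nearest library at 29.2 CPM, BRIP1 at 29.1 CPM (nearest 19.4), DNA2 at 38.8 CPM (nearest 25.8) and ABCE1 at 326 CPM (nearest 242.5). In the same library NTHL1 was low at 10.1 CPM (highest of the group 17.8), and so was DPH2 at 58.9 CPM (nearest 71.6). None of these 6 genes was called between NFS1 and NC, and NTHL1 was called as higher once that library was left out. In the other groups ACO1 stood apart in R-37 replicate 3 at 112.3 CPM (nearest 118.1), CISD1 in R-47 replicate 3 at 26.0 CPM (nearest 27.8), REV3L in NC replicate 1 at 29.7 CPM (nearest 22.8) and EXO5 in R-37 replicate 5 at 5.47 CPM (nearest 6.34). The NFS1 gene stood apart in NC replicate 5 at 76.0 CPM (nearest 72.7).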

How the results depend on the processing

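After heating, the 3 higher and 2 lower clients became 6 and 1 with library size alone, and 6 and 1 with limma on log2(FPKM + 1) or log2(FPKM + 0.1) and a filter on low values. They became 6 and 6 with length and GC offsets, and 1 was lower with limma on log2(FPKM + 1) without a filter. Leaving out 1 library gave 2 to 5 higher and 1 to 3 lower. In NFS1 against NC the 5 higher clients became 8 with the offsets, and the 11 lower became 6 without NFS1 replicates 2 and 3. In NC against R-47 the 12 lower clients became 7 with library size alone, 7 with limma without a filter, and 4 with both filtered FPKM settings, where DPYD and RTEL1 were below the filter. The 7 with limma include MOCS1, which was also called without the filter on low counts and with DESeq2. The NFS1 gene itself passed as lower in NFS1 with DESeq2 (-0.12, adjusted p = 0.0426) and with all libraries in 1 edgeR fit (-0.13, adjusted p = 0.0485). Signs turned for heat with the offsets in BRIP1 (0.15) and ABCE1 (0.09). In NC against R-47 they turned with library size and the 3 FPKM settings in NDUFV2 (0.11) and ABCE1 (0.02). The cause was not tested. Of the single-gene values under all alternatives, 748 of 789 for heat, 798 of 838 for NFS1 and 734 of 787 for NC against R-47 stayed on the same side of the threshold with no called value turning sign. Among these, 85, 24 and 1 values changed sign while not called.

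The replicate numbers share no stated origin, and the correlations of same-numbered libraries were -0.198 to 0.145. The highest correlation of all was 0.422, between NC replicate 1 and NFS1 replicate 4. NFS1 replicates 2 and 3 were the most alike of all pairs within a group, with a chi-square of 3.53 per gene. Each of these pairs was left out together in 1 setting, and whether their libraries share an origin was not tested. With the replicate number as a block, 2 clients were higher and 1 lower after heating, 4 and 8 in NFS1, and 20 and 12 in NC against R-47. Under the block NFS1 lost the calls of TYW1, CISD2, DDX11 and NDUFS8. Counts of 0 to 21 per group limit what can be said of XDH and MOCS1.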
